A study of Mus musculus with 16 samples.

Results

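Brain endothelial cells (bECs) were profiled for 10 genes of the Notch pathway: the ligands Dll4, Jag1 and Jag2, the receptors Notch1 and Notch4, the DNA-binding protein Rbpj, and the target genes Hey1, Hey2, Heyl and Hes1. They were taken as the rows of the deposited count table that carry these symbols. All 10 were found among the 37003 genes of the table, and all 10 passed the filter on low counts that left 31085 genes for testing. YT-iKO mice carried a Pdgfb-driven, tamoxifen-inducible Cre together with floxed Yap and floxed Taz (Wwtr1) alleles, the genes of the transcriptional co-activators YAP and TAZ. CTRL mice were littermates with the same floxed alleles and no Cre transgene, and mice of both genotypes received tamoxifen before surgery. Each genotype underwent sham surgery or a 30 min middle cerebral artery occlusion (MCAo), and bECs (DAPI-, CD45-, CD31+) were sorted 72 h later, so that 4 groups of 4 RNA-seq libraries were available. The study's methods name the artery's territory on the occluded side and the matching area of the other hemisphere as dissected tissue, and do not say whether both entered a library. Each replicate pooled brain tissue of several mice, adult mice of both sexes were used in the study, and the labels give no age. The paper reports the reporter signal of the Cre transgene in brain vessels and none outside them. How far the alleles were removed in each vessel type was not measured here.

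Notch signalling passes between neighbouring cells. A ligand of the Delta-like or Jagged family binds a Notch receptor, the receptor is cut by an ADAM protease and by gamma-secretase, and the freed intracellular part joins RBPJ on DNA to switch on target genes such as those of the Hes and Hey families, which encode transcriptional repressors. In vessels the pathway is known for setting arterial identity and for limiting tip cell formation during sprouting, where Dll4 and Jag1 have opposing roles in sprouting vessels of the retina. YAP and TAZ reach DNA through TEAD proteins.

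The libraries held 11418262 to 23074547 counts (median 16441012). Yap1 was at 111 to 112 CPM (counts scaled to the effective size of a library) in CTRL sham and 80.5 to 133 in CTRL MCAo libraries, and at 38.6 to 59.2 and 37.1 to 63.0 in those of YT-iKO. Its log2 fold change in YT-iKO against CTRL was -1.18 (SE 0.22) after sham and -1.17 (SE 0.22) after MCAo, and that of Wwtr1 was -1.88 (SE 0.28) after both, with adjusted p-values of 0.0371, 0.0478, 0.00381 and 0.00356 in edgeR's quasi-likelihood test. The 10 endothelial markers were detected in every library with summed levels of 8622 to 17286 CPM, while the 12 pericyte and smooth muscle markers summed to 567 to 1612 CPM and the 7 astrocyte markers to 63.6 to 114 CPM. Reads on 1466 receptor genes of the nose and tongue, which bECs are not known to use, served as a measure of reads spread evenly over the genome. Their density ran from 0.0308 to 0.576 CPM per kb of exon (median 0.184, an 18.7-fold range), and 5 libraries lay above 0.3: CTRL MCAo replicates 2 and 3, YT-iKO sham replicate 3 and YT-iKO MCAo replicates 2 and 3.

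On GRCm38 (GENCODE M21) the ligand genes lie at chr2:119325784-119335962 (Dll4, plus strand), chr2:137081456-137116644 (Jag1, minus) and chr12:112907819-112929776 (Jag2, minus), and the receptor genes at chr2:26457903-26516663 (Notch1, minus) and chr17:34564268-34588503 (Notch4, plus). Rbpj lies at chr5:53466152-53657362 (plus), Hey1 at chr3:8663359-8667256 (minus), Hey2 at chr10:30832359-30842801 (minus), Heyl at chr4:123233556-123249875 (plus) and Hes1 at chr16:30064384-30067796 (plus). Levels were compared between genes per kb of exon. The length counts the exons of all annotated transcripts of a gene (14232 bases for Notch1, 12750 for Rbpj and 6965 for Jag2). It can exceed that of the transcript in use, so the order of genes depends on it. Over the 16 libraries Jag2 (59.9 CPM per kb), Notch1 (59.4) and Notch4 (56.4) were highest, followed by Dll4 (41.9), Jag1 (31.3), Hes1 (19.3) and Hey1 (18.7). Rbpj, through which all Notch receptors act, lay far lower at 3.63 CPM per kb, and Heyl at 2.44 and Hey2 at 1.65 were lowest. In CPM without the length, Notch1 (845) stood above Jag2 (417), and Rbpj (46.3) stood between Hey1 (61.2) and Hes1 (39.4). Among the 30983 tested genes with an exon length, Jag2 stood at the 98.8th percentile and Hey2 at the 59.0th.

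In CTRL sham libraries the order was Jag2 (65.4 ± 2.25 CPM per kb, SD, n = 4), Notch1 (62.0 ± 1.64), Notch4 (59.0 ± 6.38), Dll4 (49.7 ± 6.02), Jag1 (31.8 ± 0.87), Hey1 (18.8 ± 2.03), Hes1 (18.6 ± 2.29), Rbpj (3.80 ± 0.30), Heyl (2.16 ± 0.33) and Hey2 (1.58 ± 0.26). Jag2, Notch1 and Notch4 each overlapped the next gene in this order, as did Hey1 the next gene, Hes1, whereas Dll4 and Jag1, Jag1 and Hey1, Hes1 and Rbpj, Rbpj and Heyl, and Heyl and Hey2 were separated in every library. The order differed between groups. Jag2 ranked first in both sham groups, Notch1 in CTRL MCAo (58.3 ± 13.6) and Notch4 in YT-iKO MCAo (61.9 ± 26.6), where Jag2 (60.7 ± 19.4) came after Notch1 (61.1 ± 22.7), but each of these genes overlapped the next among them in every group. After MCAo in CTRL, Hes1 (24.3 ± 5.54 CPM per kb) stood above Hey1 (13.6 ± 3.79) with no overlap between the 4 libraries of each gene. In YT-iKO sham, Hey1 (23.3 ± 3.92) stood above Hes1 (15.03 ± 3.30), again with no overlap. Dll4 ranked above Jag1 in all 4 groups, and overlapped it in 3 of them, with 35.7 ± 5.89 for Dll4 and 34.6 ± 7.91 for Jag1 in YT-iKO sham libraries. In YT-iKO MCAo, Hes1 (19.4 ± 7.92) and Hey1 (19.3 ± 6.85) overlapped.

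**Figure D1:**
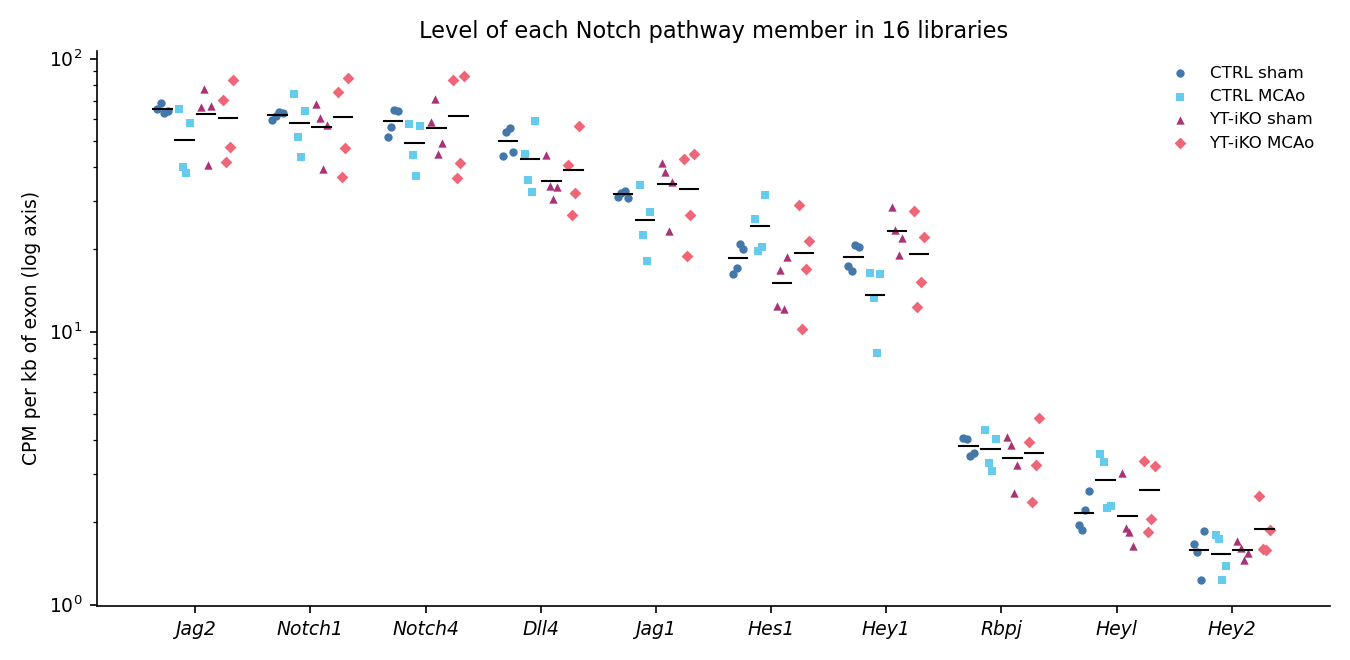
Level of each of the 10 genes in CPM per kb of exon (vertical log axis), with 1 point per library, 4 libraries per group and a bar at the group mean. The genes fall into 7 that average 18.7 or more and 3 (Rbpj, Heyl, Hey2) that average 3.63 or less over the 16 libraries.

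For the 3 genes of low level, the reads spread evenly over the genome were a visible share of the counts. A gene of that exon length would have drawn 2.21 to 29.0% of the Hey2 counts (median 13.9%), 1.28 to 22.9% of those of Heyl (median 8.82%) and 0.86 to 17.3% of those of Rbpj (median 5.07%), against at most 4.04% for any of the other 7. Dll4 shared 214 exon bases with Gm14207 on the opposite strand, and Notch1 shared 1068 with 0610009E02Rik and 414 with Gm13568. Whether the counting used strand is not given in the sources used here, so reads in these stretches may belong to either gene.

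Upstream sequence was read for the 7 of 10 members that matched the RefSeq promoter table (GRCm38.p6), which covers 250 bases before and 50 after a start site. Hey1, Heyl and Hes1 did not match. The start sites of Notch1 and Jag2 and both Rbpj start sites of that table lie inside the gene spans given above, and so do the windows before them. All 250 bases of the Jag2 window lie in annotated exons. The start sites of Jag1, Notch4 and Hey2 also lie inside the spans, and their windows lie partly inside them. The 250 bases before each start were searched on both strands for TGGGAA and the longer GTGGGAA, the core letters bound by RBPJ, for GGAATG, the core bound by TEAD proteins, and for CACGTG and CACNAG, which Hey and Hes repressors can bind. These 3 windows are shown because they hold the TEAD letters outside annotated exons, and in Hey2 the RBPJ letters as well. A window before 1 Rbpj start site holds both too, but 32 of its bases lie in exons, and it is not shown. Each run covers bases 250 to 101 before the start site, 5′ to 3′ on the strand of the gene, outside every annotated exon, with matches to the RBPJ and TEAD letters on either strand in capitals.
Hey2, chr10:30842884-30843033, minus strand: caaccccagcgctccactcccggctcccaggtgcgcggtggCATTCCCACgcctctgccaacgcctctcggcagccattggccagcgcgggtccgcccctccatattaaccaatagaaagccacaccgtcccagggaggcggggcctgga
Notch1, chr2:26503923-26504072, minus strand: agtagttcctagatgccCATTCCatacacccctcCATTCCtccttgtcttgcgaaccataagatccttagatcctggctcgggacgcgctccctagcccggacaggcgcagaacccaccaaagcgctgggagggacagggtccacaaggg
Notch4, chr17:34564045-34564194, plus strand: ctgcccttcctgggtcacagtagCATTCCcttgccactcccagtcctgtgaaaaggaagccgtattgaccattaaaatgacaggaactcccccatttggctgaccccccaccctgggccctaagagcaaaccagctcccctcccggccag

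In Hey2 the capitals mark 1 joined stretch on the strand opposite to the gene, where GTGGGAA ends in the first letters of GGAATG, so that the RBPJ and TEAD letters overlap. Hey2 was the only matched member with GTGGGAA, which 5.42% of all 32851 windows of this length hold. GGAATG is held by 12.6% of all windows, and it appeared in Hey2, in Notch1 (2 matches), in Notch4 and before 1 of 2 Rbpj start sites. TGGGAA, held by 21.6% of windows, also appeared before both Rbpj start sites. CACNAG (36.7% of windows) appeared in Dll4 and Notch1, and CACGTG (6.02%) in none of the 7 genes. Jag1 and Jag2 held none of these letters. A match is only a run of letters, and no binding was measured.

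The first question was whether loss of YAP and TAZ changed these genes without stroke. After sham surgery 0 of 10 members passed an adjusted p of 0.1, also 0 at an unadjusted p under 0.05, where 30 of 31085 genes tested (0.0965%) passed the adjusted threshold. No member had groups that did not overlap either, against 3.85% of all genes tested. The ligand Dll4, which marks arterial and tip cells, had the lowest unadjusted p. It was at 169, 208, 215 and 174 CPM in the CTRL sham libraries and at 170, 132, 117 and 131 CPM in the YT-iKO sham libraries. Only YT-iKO replicate 1 reached into the CTRL range. The log2 fold change of Dll4 was -0.48 (SE 0.24, 95% interval -0.99 to 0.03, unadjusted p = 0.0632, adjusted p = 0.990 in edgeR). In 18 of 28 alternative settings of filter, scaling, model or libraries its unadjusted p was under 0.05, and it was called in 0. The settings refit the same libraries, and some leave out a library of another comparison. Such counts of settings, here and below, are therefore no repeated support.

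The target Hey1 was at 56.9, 54.6, 67.5 and 66.7 CPM in CTRL sham and at 93.0, 77.0, 62.5 and 71.8 CPM in YT-iKO sham libraries. In YT-iKO, 3 of 4 libraries lay above every CTRL library. Its log2 fold change was 0.31 (SE 0.25, interval -0.20 to 0.82). Hes1, a target that many cell types use, was at 33.0, 34.8, 42.6 and 40.9 CPM in CTRL sham and at 25.3, 34.2, 24.7 and 38.3 CPM in YT-iKO sham, and these overlapped. Its log2 fold change was -0.30 (SE 0.26, interval -0.84 to 0.23), and -0.20 without YT-iKO sham replicate 1. For the other 7 members the fitted values lay between -0.15 (Rbpj) and 0.12 (Jag1), and over all 10 the median was -0.07 beside 0.11 over all genes tested. Without 1 library at a time this median ran from -0.17 (without YT-iKO sham replicate 2) to 0.02 (without YT-iKO sham replicate 3, with 3 of 10 members lower in place of 8).

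After MCAo, 0 of 10 members passed in YT-iKO against CTRL (0 also at an unadjusted p under 0.05), beside 0.0708% of all genes tested, and none had groups apart, beside 0.981%. Hey1 was at 53.6, 43.2, 27.2 and 53.2 CPM in CTRL MCAo and at 89.9, 40.3, 49.7 and 72.3 CPM in YT-iKO MCAo libraries. The groups overlapped, and YT-iKO replicates 2 and 3, both of high read density, were the libraries within the CTRL range. The log2 fold change of Hey1 was 0.51 (SE 0.25, interval -0.01 to 1.02, unadjusted p = 0.0522, adjusted p = 1.00 in edgeR), the lowest unadjusted p of any member in any comparison. Its unadjusted p was under 0.05 in 11 of the 28 alternative settings, and Hey1 was called in 0 of them. Jag1, at 200, 132, 106 and 159 CPM in CTRL MCAo and 250, 110, 156 and 260 CPM in YT-iKO MCAo, had a log2 fold change of 0.38 (SE 0.27, interval -0.17 to 0.93). Hes1, at 52.5, 40.1, 41.4 and 64.3 CPM against 59.2, 20.8, 34.4 and 43.7 CPM, had -0.33 (SE 0.25, interval -0.85 to 0.20). Both pairs of groups overlapped. These values moved with single libraries. Without YT-iKO MCAo replicate 1 they were 0.20 for Hey1, 0.14 for Jag1 and -0.68 for Hes1, and without YT-iKO MCAo replicate 2 they were 0.65, 0.54 and -0.14. Without CTRL MCAo replicate 3 Hey1 was 0.32 and Jag1 0.23, without YT-iKO MCAo replicate 4 Jag1 was 0.20, and without CTRL MCAo replicate 4 Hes1 was -0.18. The remaining members lay between -0.14 (Dll4) and 0.34 (Notch4), with a median over the 10 of 0.17 beside 0.03 over all genes tested. Over the 28 alternative settings, which include leaving out 1 library at a time, Notch4 ran from -0.08 to 0.54. Without 1 library at a time the median changed sign, at -0.05 without YT-iKO MCAo replicate 1 and -0.03 without replicate 4, and it was 0.28 without replicate 2, 0.27 without replicate 3 and 0.04 without CTRL MCAo replicate 3.

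The response to MCAo was then compared within each genotype. In CTRL, 0 of 10 members passed (0 also at an unadjusted p under 0.05) beside 0.216% of all genes tested. Hey1 was the 1 member of 10 whose libraries did not overlap, beside 4.14% of all genes tested. Its highest MCAo library, at 53.6 CPM, lay just below its lowest sham library, at 54.6 CPM. The log2 fold change was -0.47 (SE 0.25, interval -0.99 to 0.04, unadjusted p = 0.0712 in edgeR). With no overlap, an exact two-sided permutation test of log2(CPM + 1) can only give p = 0.0286, the smallest that 4 against 4 libraries allow. That p-value therefore repeats the lack of overlap and adds nothing to it. Hes1 had a log2 fold change of 0.39 (SE 0.26, interval -0.14 to 0.92) and Heyl of 0.40 (SE 0.25, interval -0.11 to 0.91), the only 2 members with a positive value. The ligand Jag2 had -0.38 (SE 0.26, interval -0.92 to 0.17), and the other 6 members lay between -0.31 (Jag1) and -0.04 (Rbpj). Without CTRL MCAo replicate 4 Hes1 was 0.24, and without CTRL MCAo replicate 3 Jag1 was -0.21 and Hey1 -0.32. Without the 5 libraries of high read density, a choice made after seeing the data, Hey1 was -0.26, Jag2 -0.15 and Jag1 -0.11. The median over the 10 was -0.15 beside 0.07 over all genes tested, -0.06 without CTRL MCAo replicate 3 (5 of 10 members lower in place of 8) and -0.24 without CTRL MCAo replicate 4.

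In YT-iKO, 0 of 10 members passed after MCAo (0 also at an unadjusted p under 0.05) beside 0.318% of all genes tested, and none had groups apart, beside 1.28%. Hes1 (0.37, SE 0.26, interval -0.16 to 0.90), Heyl (0.31, SE 0.25, interval -0.20 to 0.82) and Hey2 (0.26, SE 0.22, interval -0.20 to 0.71) had the highest fitted values, and Hey1 (-0.27, SE 0.25, interval -0.78 to 0.24) the lowest. Without YT-iKO MCAo replicate 1 the values were 0.02 for Hes1, 0.09 for Heyl and -0.58 for Hey1, and without replicate 2 Hes1 was 0.56 and Hey1 -0.13. Hey2 ran from 0.015 to 0.34 over the 28 alternative settings. The difference between the genotypes in the response to MCAo passed for 0 of 10 members (0 at an unadjusted p under 0.05) and for 0% of all genes tested. Its fitted values ran from -0.09 (Heyl, SE 0.35) to 0.42 (Notch4, SE 0.39, interval -0.40 to 1.23). These intervals do not exclude changes of up to 1.02 on the log2 scale for a single member between groups. Over 27 alternative settings the Notch4 value for the difference between genotypes ran from -0.04 to 0.57.

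The receptors and the low members are given by their ranges. Notch1 was at 851 to 903 CPM in CTRL sham, 618 to 1054 in CTRL MCAo, 561 to 968 in YT-iKO sham and 525 to 1205 in YT-iKO MCAo libraries, and Notch4, the receptor mostly found in endothelium, at 415 to 521, 299 to 464, 360.0 to 575 and 294 to 696 CPM in the same order. Jag2 was at 441 to 477, 265 to 457, 284 to 539 and 291 to 579 CPM. Rbpj was at 44.5 to 52.1, 39.5 to 55.8, 32.7 to 52.3 and 30.4 to 61.3 CPM. In each of these 4 genes the CTRL sham libraries lay closest together, and the ranges of all other groups crossed them. Heyl, a target best known in mural cells, was at 9.57 to 13.3, 11.5 to 18.2, 8.37 to 15.6 and 9.40 to 17.2 CPM, and Hey2, an arterial target, at 5.67 to 8.58, 5.63 to 8.29, 6.67 to 7.86 and 7.25 to 11.5 CPM.

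**Figure D2:**
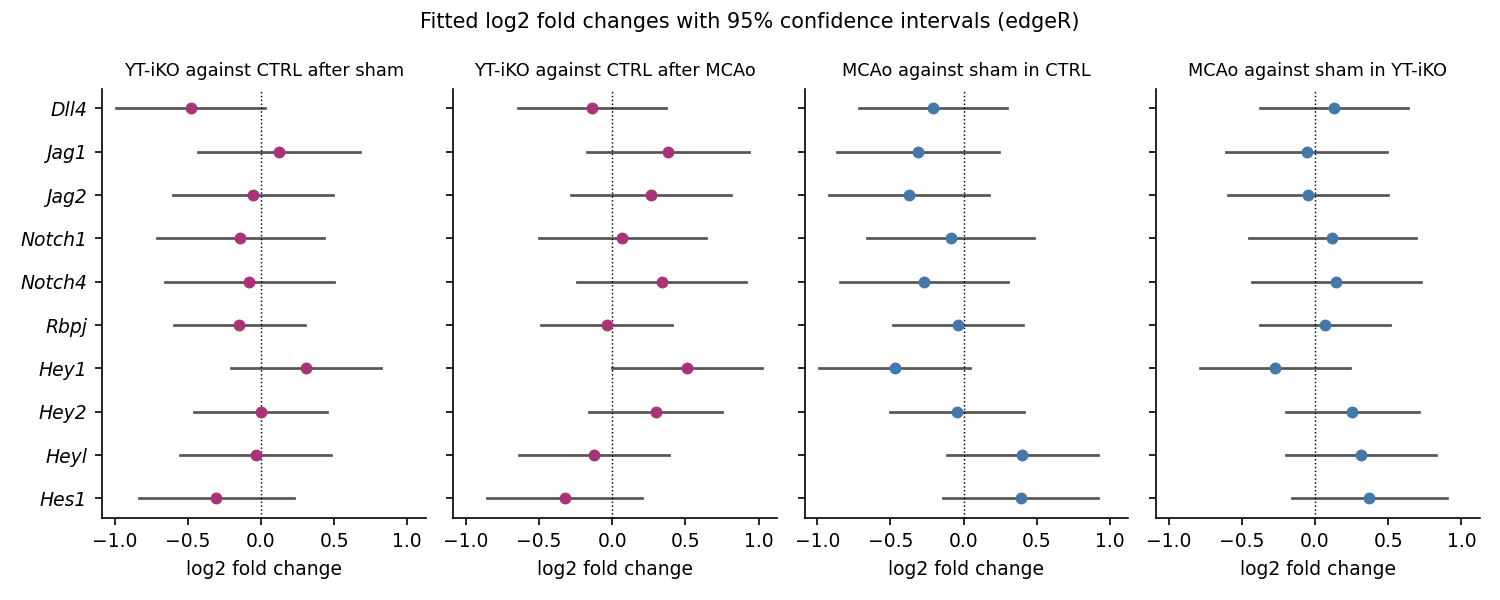
Fitted log2 fold change (horizontal axis) of each of the 10 genes in the 4 comparisons between groups of 4 libraries, with 95% confidence intervals from edgeR as lines. Every interval includes 0, and the one nearest to leaving it is Hey1 in YT-iKO against CTRL after MCAo, at -0.01 to 1.02.

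Much of the spread between replicates was common to the members. After taking off the group means, Notch1 and Jag1 followed each other across the 16 libraries with r = 0.992 of log2(CPM + 1), and each was the gene most like the other among the 9132 genes of at least 10 CPM. Jag2 was most like Fam13c (r = 0.989), Rbpj most like Ppp6r3 (r = 0.980), Notch4 most like Smtn (r = 0.977), Hey1 most like Itpk1 (r = 0.968) and Dll4 most like Pck2 (r = 0.957). The genes most like Heyl were Sod3 (r = 0.950), Atp1b2 (r = 0.946) and Vtn (r = 0.942), of which Vtn stands on the list of pericyte markers, and those most like Hes1 were Fhip1a (r = 0.913), Tinagl1 (r = 0.893) and Tprn (r = 0.881). These are descriptions over libraries that share depth and background.

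The same deviations moved with the read density on receptor genes. Over the 16 libraries the r of a member's deviation with that of log2 density was -0.93 for Notch1, -0.91 for Jag2, -0.90 for Rbpj, -0.89 for Jag1, -0.88 for Notch4, -0.84 for Dll4, -0.74 for Hey1, -0.63 for Heyl, -0.61 for Hes1 and -0.41 for Hey2. Notch1 was at 1205 CPM in YT-iKO MCAo replicate 4, the library of lowest density, and at 525 CPM in YT-iKO MCAo replicate 2, that of highest density. Scaling factors taken from genes of at least 10 CPM, in place of all genes tested, narrowed the spread. The within-group SD of log2(CPM + 1) fell from 0.37 to 0.11 for Notch1, from 0.36 to 0.11 for Jag2, from 0.40 to 0.14 for Jag1, from 0.37 to 0.20 for Hey1 and from 0.33 to 0.18 for Dll4, while that of Hey2 was 0.22 and then 0.24. These factors moved the median log2 fold change of all genes tested by 0.19 in YT-iKO against CTRL after sham, by 0.14 in MCAo against sham in CTRL and by 0.04 and -0.01 in the other 2 comparisons between groups. The number of members with a negative fitted value for YT-iKO against CTRL after sham was 8 of 10 with factors from all genes tested, 4 of 10 with these factors and 2 of 10 when libraries were scaled to the endothelial markers, so no common direction of the members is given there. Dll4 was at -0.48, -0.33 and -0.19 under the 3 in this order, Hey1 at 0.31, 0.46 and 0.59, and Hes1 at -0.30, -0.15 and -0.0033. For MCAo against sham in CTRL the number was 8, 6 and 5 of 10 and the median over the members -0.15, -0.06 and 0.009 in the same order, so none is given there either.

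**Figure D3:**
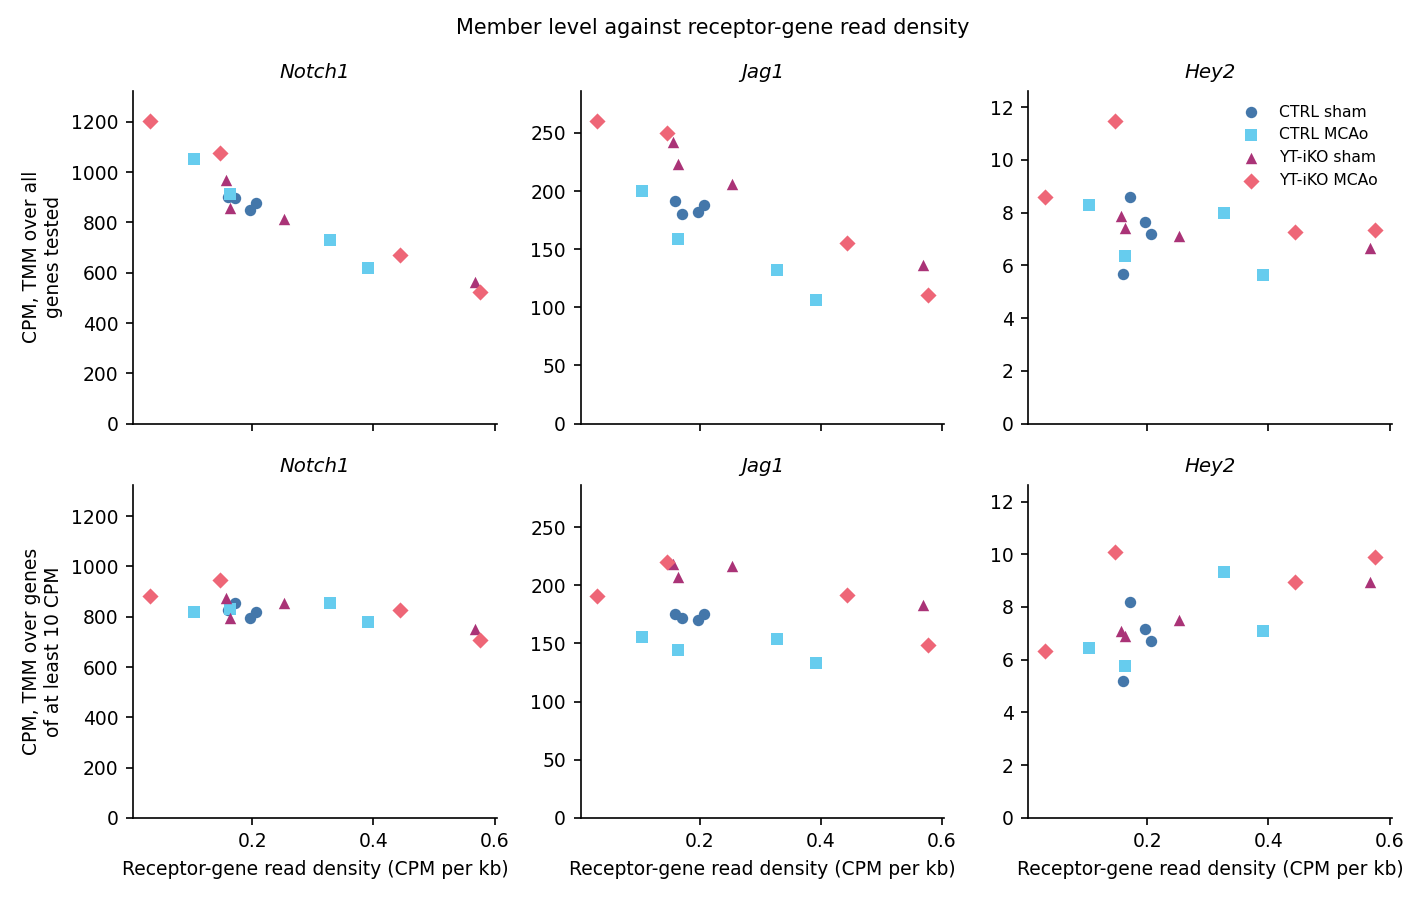
CPM of Notch1, Jag1 and Hey2 (vertical axes, from 0) against the density of reads on receptor genes in CPM per kb (horizontal axis), 1 point per library, with scaling factors from all genes tested (top row) and from genes of at least 10 CPM (bottom row). With the first factors Notch1 runs from 1205 CPM at the lowest density to 525 CPM at the highest, and with the second its within-group SD on the log2 scale is 0.11.

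Under those factors, which also called 0 of 10 members in each comparison (lowest adjusted p 0.129, Jag2 after MCAo in CTRL), more members had groups that did not overlap. For YT-iKO against CTRL after sham these were 3 of 10, beside 4.49% of all genes: Hey1 (57.4 ± 6.22 CPM in CTRL and 78.7 ± 6.19 in YT-iKO, SD, n = 4) and Jag1 (173 ± 2.58 and 206 ± 16.2) were higher and Dll4 (179 ± 19.5 and 143 ± 16.1) was lower in YT-iKO. After MCAo they were 2 of 10, beside 3.21%: Hey1 (43.6 ± 7.26 in CTRL and 61.9 ± 11.97 in YT-iKO) and Jag2 (345 ± 19.01 and 414 ± 17.1) were higher in YT-iKO. For MCAo against sham in CTRL they were 4 of 10, beside 7.34%, with Hey1, Jag1 (173 ± 2.58 after sham and 147 ± 10.1 after MCAo) and Jag2 (426 ± 17.4 and 345 ± 19.01) lower and Hes1 (35.3 ± 4.30 after sham and 49.5 ± 7.56 after MCAo) higher. In YT-iKO there was none of 10, beside 3.18%. These shares are over all genes tested, whereas 7 of the 10 members stood at the 93.8th percentile of level per kb or above. No share over genes of like level was taken, so these counts are no result about the members. The Hey1 values corresponded to log2 fold changes of 0.46 (SE 0.13, unadjusted p = 0.00289, adjusted p = 0.357) after sham and 0.51 (SE 0.13, unadjusted p = 0.00138, adjusted p = 0.164) after MCAo in edgeR. In the order of these 4 comparisons, 3, 4, 5 and 1 of 10 members had an unadjusted p under 0.05 in edgeR. With factors from all genes tested it was 0 in each. No count over all genes tested stands beside these, so they are no result about the members.

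**Figure D4:**
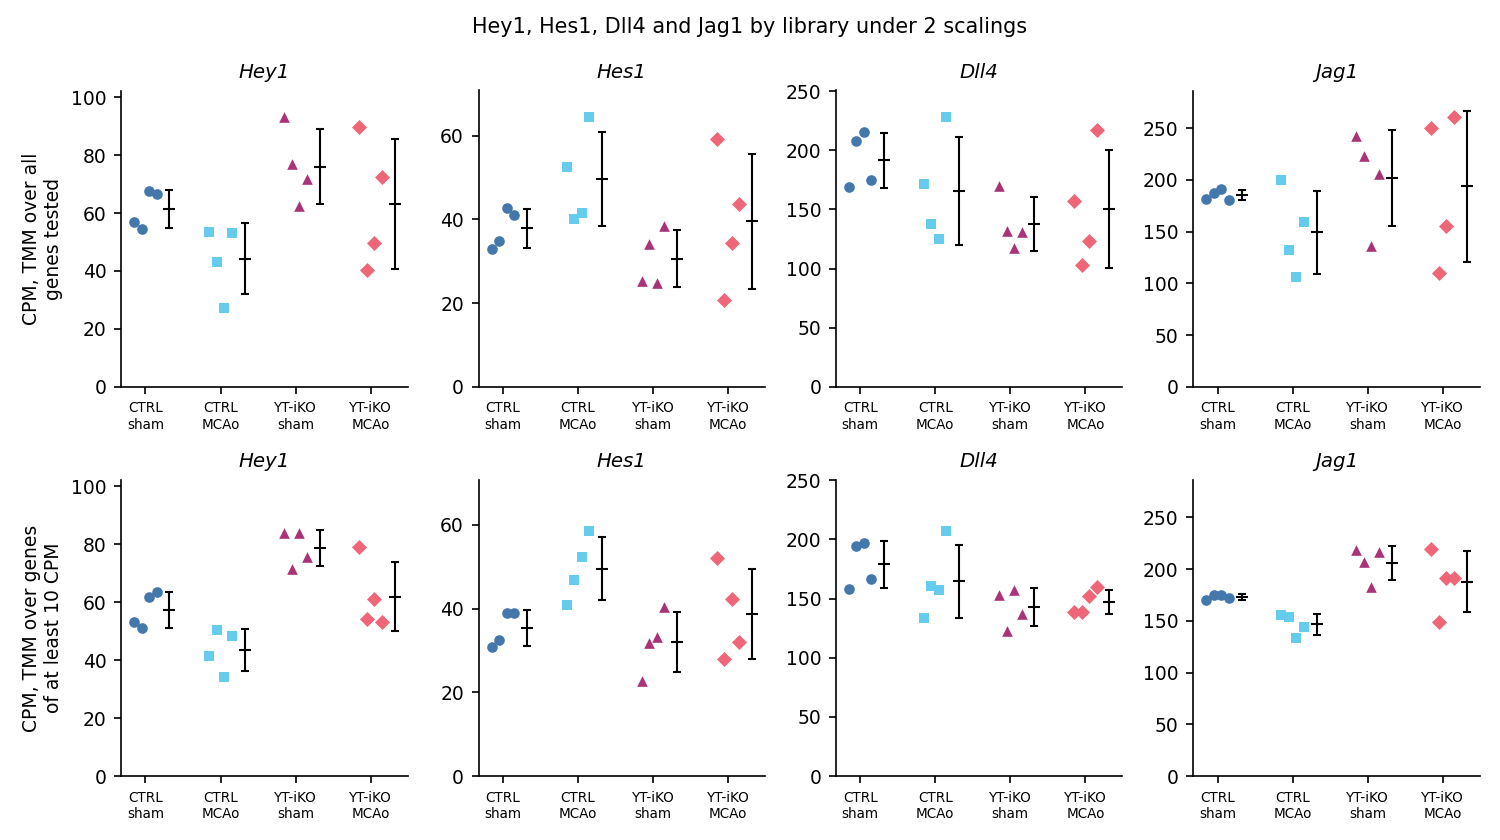
CPM (vertical axes, from 0) of Hey1, Hes1, Dll4 and Jag1 in each library, with the mean and SD of the 4 libraries of a group at the right of its points, under factors from all genes tested (top row) and from genes of at least 10 CPM (bottom row). In the bottom row the 4 YT-iKO sham libraries of Hey1 (71.5 to 83.9 CPM) lie above the 4 CTRL sham libraries (51.0 to 63.6 CPM), while in the top row they overlap.

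Other fits gave other calls in places. With limma-voom and sample quality weights, 6 of 10 members passed for MCAo against sham in CTRL, beside 24.2% of all genes tested, and 4 of 10 in YT-iKO, beside 18.1%. These shares too are over all genes and not over genes of like level. In CTRL, Jag2 (-0.63), Hey1 (-0.60), Jag1 (-0.51), Dll4 (-0.42) and Notch4 (-0.40) were lower and Heyl (0.48) higher after MCAo, and in YT-iKO Hey1 (-0.67), Jag1 (-0.52), Jag2 (-0.49) and Notch4 (-0.44) were lower. That fit weighted CTRL MCAo replicate 2 at 3.43 and YT-iKO MCAo replicate 3 at 4.00, both of high read density, and YT-iKO MCAo replicate 4, of the lowest density, at 0.06. Scaling each library to the summed counts of the endothelial markers called Jag1 higher in YT-iKO after MCAo (log2 fold change 0.45, SE 0.10, adjusted p = 0.0593), 1 of 10 members beside 0.425% of all genes tested.

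Ratios of members within a library do not depend on its scaling apart from the pseudocount of 1 CPM, and show unequal change without telling which gene moved. Of 5 ratios tested in 4 comparisons each (20 tests), 5 tests reached the smallest two-sided exact permutation p of 0.0286 (70 assignments of 4 against 4), all with groups that did not overlap, and after Benjamini-Hochberg adjustment over the 20 the lowest value was 0.114, so none passed 0.05 or 0.1. The ratio of Hey1 to Hes1 gave 3 of these 5.

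The Hey1 to Hes1 ratio was 1.70, 1.55, 1.57 and 1.61 in CTRL sham libraries and 1.02, 1.08, 0.66 and 0.83 in CTRL MCAo libraries. In YT-iKO it was 3.57, 2.22, 2.47 and 1.85 after sham and 1.51, 1.89, 1.43 and 1.64 after MCAo. Every CTRL MCAo library thus lay below every library of the other 3 groups, and every YT-iKO sham library above every CTRL sham library. The ratio was 0.55-fold after MCAo against sham in CTRL (log2 difference -0.87, SE 0.16) and 0.66-fold in YT-iKO (-0.61, SE 0.22, exact permutation p = 0.0571), where 1 MCAo library lay within the sham range. It was 1.53-fold in YT-iKO against CTRL after sham (0.61, SE 0.20) and 1.83-fold after MCAo (0.87, SE 0.18). Whether the MCAo response of the ratio differed between the genotypes was not tested.

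The Dll4 to Jag1 ratio was 0.93, 1.11, 1.12 and 0.97 in CTRL sham and 0.70, 0.59, 0.86 and 0.64 in YT-iKO sham libraries, with no overlap. In CTRL MCAo it was 0.86, 1.04, 1.18 and 1.43 and in YT-iKO MCAo 0.63, 0.93, 0.80 and 0.84, where CTRL replicate 1 reached into the YT-iKO range. The ratio was 0.67-fold in YT-iKO against CTRL after sham (log2 difference -0.57, SE 0.14) and 0.71-fold after MCAo (-0.49, SE 0.19, exact permutation p = 0.0571). MCAo against sham gave 1.08-fold in CTRL and 1.14-fold in YT-iKO, both with overlap (exact permutation p = 0.629 and 0.343).

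Among the Hey genes, the Hey1 to Hey2 ratio was 10.6, 9.27, 8.27 and 8.97 after sham against 7.28, 4.96, 6.15 and 7.63 after MCAo in YT-iKO libraries, 0.69-fold with no overlap (log2 difference -0.53, SE 0.16). In CTRL it was 6.68, 6.80, 10.3 and 7.07 after sham and 5.88, 4.92, 4.25 and 7.37 after MCAo (0.72-fold, exact permutation p = 0.114). Hey2 counts include the background share given above. The Notch1 to Notch4 ratio kept to 1.49 to 2.27 in all 16 libraries. Its lowest exact permutation p was 0.0571, for YT-iKO against CTRL after MCAo (0.85-fold). The Dll4 to Notch1 ratio ran from 0.15 to 0.25, with a lowest exact permutation p of 0.0857 for YT-iKO against CTRL after sham (0.80-fold).

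**Figure D5:**
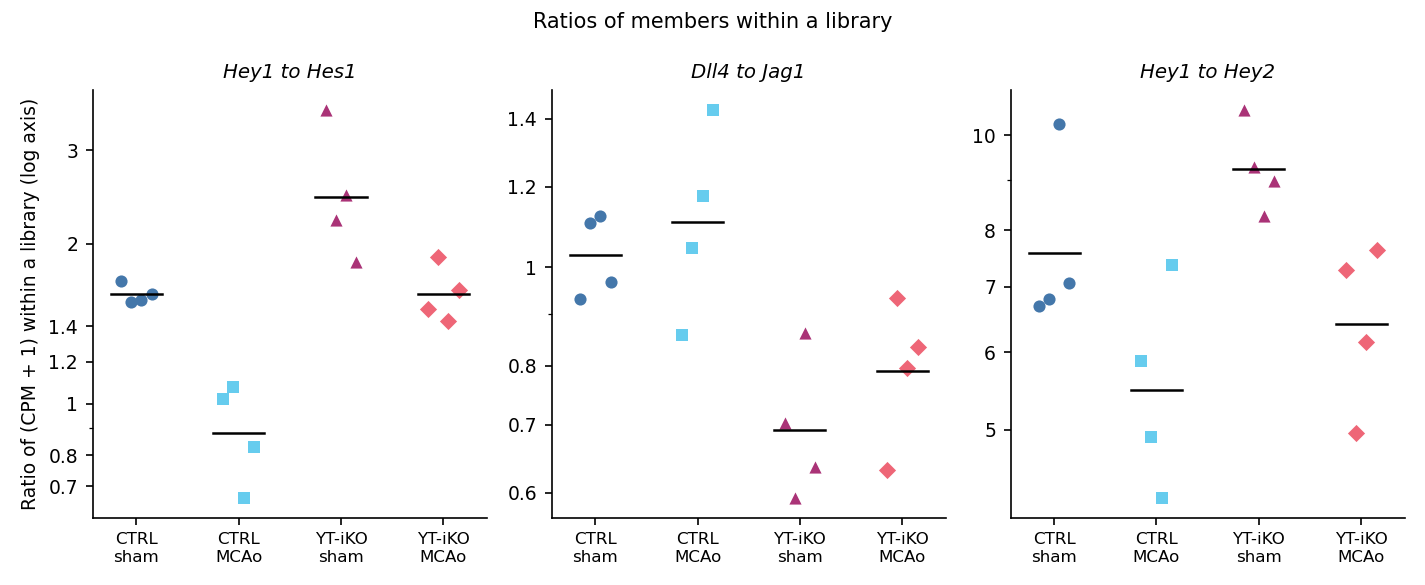
Ratio of (CPM + 1) of Hey1 to Hes1, Dll4 to Jag1 and Hey1 to Hey2 in each library (vertical log axes), with a bar at the geometric mean of the 4 libraries of a group. All CTRL MCAo libraries lie at 0.66 to 1.08 for Hey1 to Hes1, below the libraries of the other 3 groups.

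Markers of vessel types and of other cells were read in the same comparisons. The 8 venous markers, all above 0 in every library, summed to 1594 to 1983 CPM after sham and 3398 to 8101 CPM after MCAo in CTRL, and to 1082 to 1473 and 2458 to 7823 CPM in YT-iKO. Most of this was Vwf, which with Ackr1 rose after MCAo in both genotypes (log2 fold changes of 1.98 and 2.35 for Vwf, 3.80 and 3.77 for Ackr1, edgeR adjusted p-values of 0.0281, 0.00526, 0.00166 and 0.00161). All 8 venous markers had a higher value after MCAo in both genotypes (medians 0.57 in CTRL and 0.88 in YT-iKO). Of them 2 were called in CTRL and 3 in YT-iKO. The 10 arterial markers summed to 832 to 895 CPM after sham and 511 to 1025 CPM after MCAo in CTRL, and to 583 to 1066 and 701 to 1298 CPM in YT-iKO, also with none at 0. Among them Alpl fell after MCAo in CTRL (-1.12, adjusted p = 0.0739), Gja4 rose in YT-iKO (2.32) and Mgp rose in both genotypes (1.83 and 2.11). Of the 10, 5 had a higher value after MCAo in CTRL (median -0.17) and 7 in YT-iKO (median 0.57). In YT-iKO against CTRL after MCAo 9 had a higher value (median 0.28, none called). There 6 of the 10 Notch members had positive values and 4 negative ones, with Dll4 (-0.14) among the latter. In YT-iKO sham libraries the tip cell marker Angpt2 (-1.38, adjusted p = 0.0150) and the venous marker Slc38a5 (-1.60, adjusted p = 0.0537) were lower than in CTRL sham libraries, while 4 of 8 markers of each of these lists had a higher value (medians -0.01 and -0.09). In that comparison 0 of 10 endothelial markers had a higher value (median -0.25), against 6 of 7 neuron markers (median 0.64) and 6 of 7 markers of neutrophils, monocytes, lymphocytes and red cells (median 0.73), with none called. The neuron markers, none at 0, summed to 37.9 to 44.8 CPM in CTRL sham and 43.9 to 67.2 CPM in YT-iKO sham libraries, and the blood cell markers, with S100a8 and S100a9 at 0 in at least 1 library, to 6.72 to 14.6 and 9.68 to 21.96 CPM, both with overlap. None of the 10 members stood on these marker lists. The pericyte and smooth muscle markers, none at 0, summed to 848 to 1027, 624 to 1612, 644 to 956 and 567 to 1299 CPM after sham and MCAo in CTRL and then in YT-iKO. Of the 12, 10 had a higher value after MCAo in CTRL (median 0.31), where Heyl and Hes1 were the members with a positive value, and 6 in YT-iKO (median 0.01), with none called. In YT-iKO against CTRL 5 were higher after sham (median -0.15) and 3 after MCAo (median -0.19). The microglia and macrophage markers, none at 0, had a higher value in YT-iKO than in CTRL for 7 of 8 after sham (median 0.18) and 8 of 8 after MCAo (median 0.36), with none called and overlapping sums of 9.74 to 20.8 and 10.3 to 26.05 CPM after sham and of 7.46 to 17.1 and 8.41 to 25.3 CPM after MCAo. Neuron markers were higher for 6 of 7 after MCAo too (median 0.16), and oligodendrocyte markers for 5 of 6 after sham (median 0.37) and 3 of 6 after MCAo (median 0.11), with none called. Endothelial markers were higher in YT-iKO than in CTRL for 1 of 10 after MCAo (median -0.12), with none called. The astrocyte markers summed to 99.0 to 112 CPM in CTRL sham and 63.6 to 83.9 CPM in YT-iKO sham libraries with no overlap, though 3 of 7 had a higher value and none was called. The 6 fibroblast markers, with Lum at 0 in at least 1 library, summed to 19.7 to 22.9 CPM after sham and 31.6 to 39.2 CPM after MCAo in CTRL with no overlap, and 6 of 6 had a higher value (median 0.77) with none called. In YT-iKO their sums overlapped, at 20.7 to 40.1 and 30.8 to 42.2 CPM, and 5 of 6 had a higher value (median 0.70, none called). Of 8 tip cell markers, 6 had a higher value after MCAo in CTRL (median 0.35) and 7 in YT-iKO (median 0.49), with none called. The part of these cells in the values and ratios of Hey1, Hes1, Dll4 and Jag1 was not tested, and in bulk libraries fewer cells of a type and less RNA per cell cannot be told apart.

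The rest of the pathway was read from a list of 50 further genes, of which 49 passed the filter and Hes5 did not. None of the 49 was called higher or lower in any of the 5 comparisons, and in order of the comparisons above 1, 1, 0, 1 and 0 had an unadjusted p under 0.05 in edgeR, beside 670, 464, 1089, 937 and 116 of all 31085 genes tested, so these counts are no result about the list. Their medians were -0.12 for YT-iKO against CTRL after sham, -0.03 after MCAo, -0.03 for MCAo against sham in CTRL and 0.11 in YT-iKO. Among the other receptors, Notch3, which marks mural cells, had means of 7.17 CPM per kb after sham and 10.2 after MCAo in CTRL (log2 fold change 0.50, SE 0.32, unadjusted p = 0.128), and of 7.39 and 11.3 in YT-iKO (0.61, SE 0.32, unadjusted p = 0.0679). Notch2 was at 5.72 to 6.57 CPM per kb in the 4 group means, with values between -0.19 and -0.01 in the 4 comparisons between groups. The 5 other ligands lay below Dll4, Jag1 and Jag2, with Dll1 at 2.71 to 3.95 CPM per kb in the group means and Dll3, Dlk1, Dlk2 and Dner at 0.19 to 0.58. Dll1 had log2 fold changes of 0.48 (SE 0.30) after sham and 0.35 (SE 0.30) after MCAo in YT-iKO against CTRL.

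Neurl1b, a ubiquitin ligase that acts on Notch ligands, had the lowest p of the list in YT-iKO against CTRL after sham (log2 fold change -0.57, SE 0.22, unadjusted p = 0.0165) and -0.41 (SE 0.22, unadjusted p = 0.0768) after MCAo. Nrarp, a target that feeds back on the pathway, had -1.17 (SE 0.50, unadjusted p = 0.0286) in YT-iKO against CTRL after MCAo, at group means of 0.25 to 0.65 CPM per kb that lie near the read density on receptor genes. Dtx4 had 0.50 (SE 0.26, unadjusted p = 0.0709) after MCAo in CTRL and 0.57 (SE 0.26, unadjusted p = 0.0419) in YT-iKO. Spen, a co-repressor that binds RBPJ, had -0.38 (SE 0.24, unadjusted p = 0.120) in YT-iKO after sham, and the gamma-secretase subunit Psen2 had 0.37 (SE 0.21, unadjusted p = 0.0964) after MCAo in CTRL. For the difference between genotypes the lowest values were those of Aph1b (0.47, SE 0.34, unadjusted p = 0.184) and Neurl1a (-0.61, SE 0.55, unadjusted p = 0.275). All adjusted p-values of the list were 0.990 or above in edgeR. Egfl7, a secreted endothelial protein that can antagonise Notch, was the most abundant gene of the list at 229 to 262 CPM per kb in the group means, with values of 0.05 to 0.14 in the 4 comparisons.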

How the data were processed

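RNA of sorted brain endothelial cells was made into libraries with a SMART-Seq Ultra Low Input kit and sequenced paired-end. The authors aligned reads with STAR 2.7.8a to GRCm38 with the GENCODE M12 annotation and deposited raw counts per gene, not normalized. The counting program, its use of strand and any gene filter are not given in the sources used here. Exon lengths came from GENCODE M21 (36861 of 37003 genes matched), and promoters from RefSeq.

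From the deposited counts, genes were filtered with filterByExpr (minimum count 10, minimum total 15), scaled by TMM and tested in edgeR 4.0.16 (R 4.3.3, quasi-likelihood, all 4 groups in 1 fit), with Benjamini-Hochberg adjustment over 31085 genes and a threshold of 0.1. CPM use the TMM factors. Exact two-sided permutation tests used log2(CPM + 1). DESeq2 1.42.0 and limma 3.58.1 were alternatives. The edgeR steps were tested on simulated data: of 100 genes of at least 10 CPM changed 4-fold and 100 changed by 1 on the log2 scale, 100% and 60% were called in the simulated YT-iKO against CTRL after sham (28798 genes). All 10 members are named, and of the other pathway genes those called, the 2 with the lowest p per comparison and the other receptors and ligands. Likeness used the 3 genes with the highest r. The members, ratios and lists were chosen with earlier results of these data known. Nothing says which mice went into which replicate beyond the pooling, and p-values measure the spread between these libraries. Intervals cover the fit, and counts were not corrected for duplicate reads.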

Additional observations from a re-analysis of the deposited data

Results flagged for a closer look

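The ratio of Hey1 to Hey2 in CTRL sham replicate 3, at 10.3, stood apart from the other 3 libraries of its group, which lay at 6.68 to 7.07. Its gap to the nearest was 0.87 of the group's range on the log2 scale, above Dixon's 95% critical value for 4 values. It was the 1 such value among 60 groups of values examined (40 of single members and 20 of ratios), and chance flags about 1 group in 20. No member showed a difference between genotypes in its MCAo response that passed the test, and none moved in opposite directions with no overlap.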

How the results depend on the processing

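No member was called in any comparison under RLE factors, no filter, a CPM filter, 2-group fits, DESeq2, TMM factors from genes of at least 10 CPM, log2 density as a covariate, or any of the 16 fits without 1 library. Scaling to endothelial markers called 1 member in YT-iKO against CTRL after MCAo, and limma-voom called 6 for MCAo against sham in CTRL and 4 in YT-iKO, where Notch4 was -0.44 in place of 0.15. The causes were not tested. The labels tie the replicate numbers to no shared animal or day. Deviations from the group means were compared over the 1000 genes that varied most. Same-numbered libraries of different groups had a median r of 0.259, with 17 of 24 pairs above 0.1, and the 72 other pairs had a median of -0.128. Same-numbered libraries were thus more alike. Every library of density above 0.3 was numbered 2 or 3, though not all so numbered lay above it. As no label ties them, the numbers were not used as pairs. The permutation tests, also those of ratios, do not allow for this likeness. With the replicate block 0 members were called in every comparison, and the calls over all genes were 40, 34, 119, 132 and 0 in place of 30, 22, 67, 99 and 0. Those counts were 115, 181, 554, 534 and 0 with TMM factors from genes of at least 10 CPM, 154, 278, 816, 585 and 1 with the density covariate, and 65, 78, 203, 239 and 0 in DESeq2.

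Ratios were recomputed without each library in turn (3 against 4). Of the 5 tests at the smallest p, those of Hey1 to Hes1 for YT-iKO against CTRL after MCAo and for MCAo in CTRL gave an exact permutation p of 0.0286 in all 8 fits each, the smallest that 3 against 4 libraries allow. The other 3 reached 0.0571 without any 1 CTRL sham library (Dll4 to Jag1 and Hey1 to Hes1 after sham) or any 1 YT-iKO sham library (Hey1 to Hey2). Another 7 tests fell to 0.0286 without 1 library. For YT-iKO against CTRL these were Hey1 to Hey2 after sham (without CTRL sham replicate 3), Dll4 to Notch1 after sham (YT-iKO sham replicate 3), Dll4 to Jag1 after MCAo (CTRL MCAo replicate 1) and Notch1 to Notch4 after MCAo (YT-iKO MCAo replicate 3). For MCAo they were Notch1 to Notch4 (CTRL sham replicate 1) and Hey1 to Hey2 (CTRL MCAo replicate 4) in CTRL and Hey1 to Hes1 in YT-iKO (YT-iKO sham replicate 4). Log2 differences for YT-iKO against CTRL after sham were -0.68 to -0.50 for Dll4 to Jag1, -0.14 to 0.010 for Notch1 to Notch4, 0.22 to 0.43 for Hey1 to Hey2, -0.41 to -0.26 for Dll4 to Notch1 and 0.43 to 0.74 for Hey1 to Hes1. After MCAo they were -0.61 to -0.36 for Dll4 to Jag1, -0.29 to -0.19 for Notch1 to Notch4 and 0.73 to 0.96 for Hey1 to Hes1. For MCAo in CTRL they were -0.015 to 0.23 for Dll4 to Jag1, 0.13 to 0.21 for Notch1 to Notch4, -0.61 to -0.32 for Hey1 to Hey2 and -0.96 to -0.73 for Hey1 to Hes1. In YT-iKO they were -0.077 to 0.077 for Notch1 to Notch4, -0.61 to -0.40 for Hey1 to Hey2, -0.041 to 0.11 for Dll4 to Notch1 and -0.74 to -0.43 for Hey1 to Hes1. Dll4 to Jag1 ran there from 0.11 to 0.30. YT-iKO against CTRL after MCAo gave 0.10 to 0.37 for Hey1 to Hey2 and -0.27 to -0.065 for Dll4 to Notch1. MCAo in CTRL gave -0.23 to -0.028 for Dll4 to Notch1. Without the 5 libraries of density above 0.3, a choice made after seeing the data, Hey1 to Hes1 was 0.77 for YT-iKO against CTRL after MCAo (2 against 2, exact p = 0.333) and -0.81 for MCAo in CTRL (exact p = 0.0667), and Hey1 to Hey2 was -0.36 for MCAo in YT-iKO (exact p = 0.10), each the smallest p that 2 against 2, 2 against 4 and 2 against 3 libraries allow, so none could pass 0.05. Notch1 to Notch4 and Dll4 to Notch1 were -0.15 and -0.0065 for MCAo in YT-iKO, and Dll4 to Notch1 was -0.41 after sham (exact p = 0.0286).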
